A study of Mus musculus with 26 samples.

Results

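The NMDA receptor subunits are described here as 6 genes, Grin1, Grin2a, Grin2b, Grin2c, Grin2d and Grin3a, taken by name from the 36589 genes of a single-cell count table. The table holds mouse thalamic neurons that send axons to the cortex. Their cell bodies carried a fluorescent label transported back from the cortex, and labelled neurons were picked by hand from dissociated slices of adult mice. The target was visual, somatosensory, prefrontal, motor or auditory cortex. The labels name no strain, genotype or tracer, and they set the groups apart by the projection target; all animals are listed as male, with ages of 64 to 112 days. Each cell was read as a 3' library whose unique molecular identifiers (UMIs) count captured transcripts. The 1972 cells came from 26 plates and 3 sequencing batches, and held 20509 to 683775 UMIs each. They were summed per animal and system into 21 sums: 5 auditory (380 cells), 5 motor (484 cells), 4 prefrontal (388 cells), 3 somatosensory (285 cells) and 4 visual (435 cells). A sum is the replicate throughout, and cells are not. With letter case ignored, the table holds 20 animal identifiers. An auditory and a visual sum share 1 of them but differ in sort date and listed age (70 and 91 days), and they were kept as separate sums.

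NMDA receptors are glutamate-gated cation channels of 4 subunits that open when glutamate is bound, the co-agonist glycine or D-serine is present and depolarisation has expelled magnesium from the pore. Grin1 encodes GluN1, the subunit every such receptor needs. Grin2a to Grin2d encode the GluN2 subunits, which bind glutamate and set how long the current lasts and how strongly magnesium blocks it; receptors with GluN2C or GluN2D are blocked less by magnesium than those with GluN2A or GluN2B. Grin3a encodes GluN3A, which binds glycine and lowers calcium entry in receptors that contain it. In thalamic relay neurons these receptors carry part of the input from sensory afferents and from cortical layer 6.

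All 6 genes lie on the minus strand of GRCm38, the assembly also named mm10, in the GENCODE vM21 annotation. Grin1 spans chr2:25291181-25319187, Grin2a chr16:9567898-9995560, Grin2b chr6:135713233-136173511, Grin2c chr11:115249169-115267243, Grin2d chr7:45831883-45878378 and Grin3a chr4:49661611-49845744. Other annotated genes overlap 5 of the 6, among them the antisense RNA Grin1os, the protein-coding Kdelr1 on the opposite strand of Grin2d, and Ppp3r2 on the same strand as Grin3a. The sources used here do not say whether counting kept strands apart, and such reads may be shared. The start regions of Grin1, detected in nearly every cell, and of Grin2c, the subunit whose level varied most between classes and clusters of neurons, are shown to set a subunit found nearly everywhere beside the most variable one. Of the 6 genes, 3 had a window in the table. Each window is 250 bases before and 50 bases after the RefSeq start on GRCm38.p6, read 5' to 3' on the gene's strand, and capitals mark the GC box GGGCGG, searched on both strands.
Grin1 (chr2:25319138-25319437, minus strand): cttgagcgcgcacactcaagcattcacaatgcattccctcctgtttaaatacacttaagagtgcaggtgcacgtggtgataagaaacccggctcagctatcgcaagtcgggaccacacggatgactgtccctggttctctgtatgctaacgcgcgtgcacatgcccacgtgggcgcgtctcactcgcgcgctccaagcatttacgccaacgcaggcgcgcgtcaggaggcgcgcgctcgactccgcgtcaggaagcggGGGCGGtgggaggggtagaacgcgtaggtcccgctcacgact
Grin2c (chr11:115267194-115267493, minus strand): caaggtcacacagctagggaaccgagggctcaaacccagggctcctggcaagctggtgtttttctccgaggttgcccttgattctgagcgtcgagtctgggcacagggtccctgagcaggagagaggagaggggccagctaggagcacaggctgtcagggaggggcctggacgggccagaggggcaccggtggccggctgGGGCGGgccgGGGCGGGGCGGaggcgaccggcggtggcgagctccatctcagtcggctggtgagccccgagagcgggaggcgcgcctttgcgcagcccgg
The Grin1 window held 1 GC box and 33 CG dinucleotides. The Grin2c window held 3 GC boxes, of which a pair overlap by a base, and 22 CG dinucleotides. That of Grin2d, the third window and not printed here, held 0 GC boxes and 12 CG dinucleotides. Of all 32851 windows of this length in the table, 35.7% held a GC box on either strand, and the median count of CG dinucleotides was 7. A match describes these letters and shows no binding.

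The cells carried the markers of thalamic glutamate neurons: Slc17a6, the vesicular glutamate transporter of the thalamus, was found in 99.6% of cells and the transcription factor Tcf7l2 in 99.9%. Gad2, a GABA-synthesising enzyme that these neurons should lack, had a UMI in 1.47% of cells, which serves as a background for shares of cells. The summed level of 10 oligodendrocyte markers ranged from 25 to 463 CPM (counts scaled to a common library total) between sums and that of 10 astrocyte markers from 0.417 to 16.2 CPM; the oligodendrocyte median was 60.3 CPM in prefrontal and 126 CPM in auditory sums, against 182 to 332 CPM elsewhere, and the part of such RNA in the differences between systems was not tested. Of the 1972 cells, 84 held 3 or more markers of another cell type, 69 of them oligodendrocyte and 0 astrocyte markers. A sum held 4317156 to 20322775 UMIs. Batch 1 held auditory, motor and prefrontal sums only, from animals of 91 to 112 days; all 3 somatosensory sums were in batch 2 and all 4 visual sums in batch 3. Within the auditory, motor and prefrontal systems the animals of batches 2 and 3 were 69 to 81 days old, so that batch 1 and age cannot be told apart there; visual animals of batch 3 were 69 to 104 days old. Age was not a term of the model and its part was not tested. Comparisons of somatosensory with visual sums rest on the batch term of the model.

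Across the 21 sums Grin2b had the highest mean of the 6, 409 CPM, followed by Grin1 with 318, Grin2a with 221, Grin2c with 73.9, Grin3a with 69.3 and Grin2d with 39.2 CPM. A 3' UMI library gives about 1 count per captured transcript whatever its length, so CPM (scaled by trimmed mean of M-values, TMM) can be set side by side, apart from gene-to-gene differences in capture of the 3' end. Counting every cell, Grin1 had 69145 UMIs, Grin2b 91977, Grin2a 49210, Grin2c 17642, Grin3a 15037 and Grin2d 8951. At least 1 UMI was found in 98.3% of cells for Grin2b, 97.5% for Grin1, 81.6% for Grin2a, 62.3% for Grin2c, 49.1% for Grin2d and 48.1% for Grin3a. All 6 passed the filter on low counts, and 4 of the 6 differed among the 5 systems at an adjusted p under 0.05 (edgeR quasi-likelihood F test with batch as a covariate, Benjamini-Hochberg over all genes). Among all 17211 genes tested, 12.6% did.

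**Figure D1:**
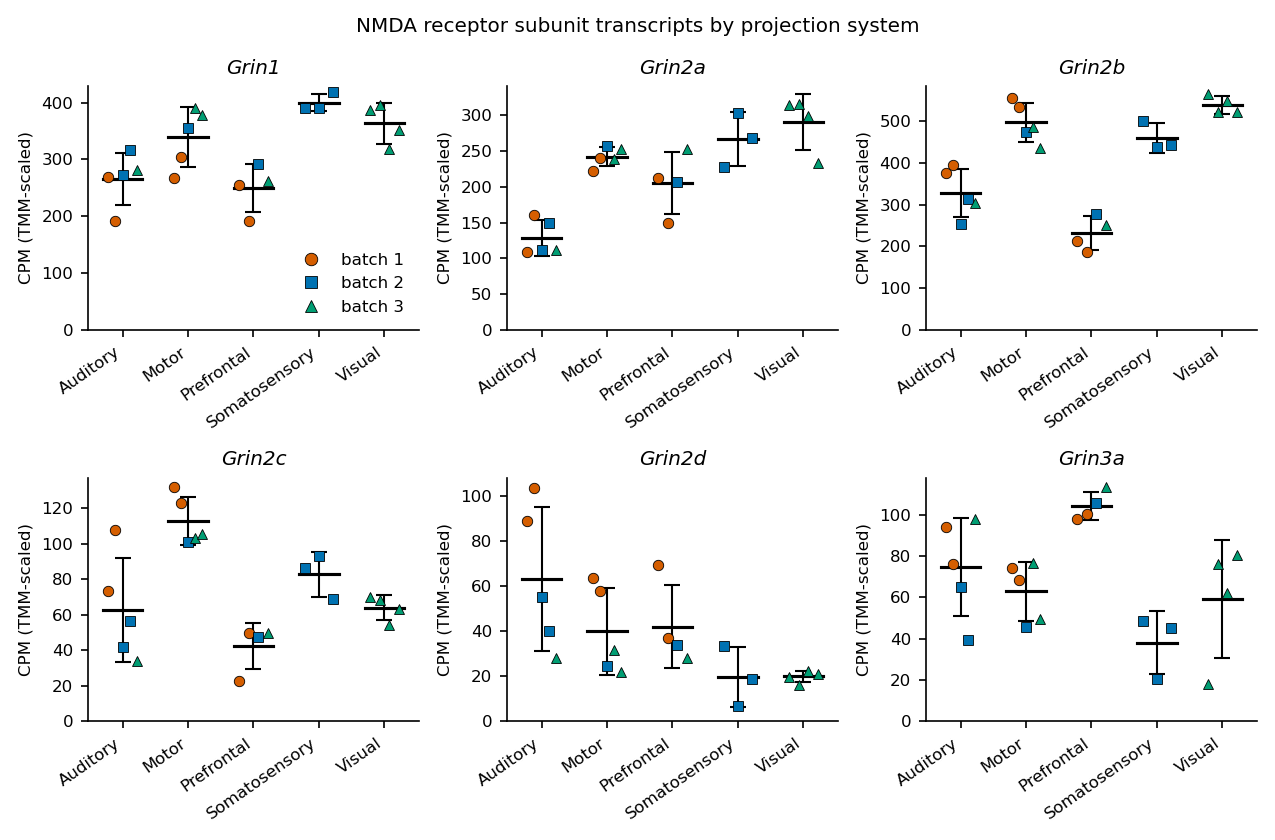
Level of each subunit gene in every sum (points; TMM-scaled CPM on the y axis) for the 5 projection systems, with the mean (bar) and SD (whiskers) over sums; colour and shape give the sequencing batch. The mean of Grin2b is lowest in the prefrontal system, whose 4 sums lie between 186 and 278 CPM, and that of Grin2a in the auditory system, whose 5 sums lie between 108 and 161 CPM; each range overlaps that of 1 other system.

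Grin1, the obligatory subunit, was lowest in prefrontal and auditory neurons and highest in somatosensory neurons. Its level was 250.1 ± 42.4 CPM in prefrontal (SD, n = 4), 266 ± 46.0 in auditory (n = 5), 339 ± 52.5 in motor (n = 5), 363 ± 35.7 in visual (n = 4) and 399.9 ± 15.5 CPM in somatosensory sums (n = 3). The 3 somatosensory sums lay between 391 and 418 CPM, above every auditory and prefrontal sum, the highest of which reached 316 CPM. The systems differed (adjusted p = 0.0155, edgeR F test), a call that was lost without batch 2 (0.133), without batch 3 (0.109) and in each batch alone (0.141 to 0.593). Prefrontal sums stood below the mean of the other systems by a log2 difference of -0.335 ± 0.0978 (SE, adjusted p = 0.0339, edgeR), a contrast in which 9.17% of all genes passed. Auditory sums were lower than motor sums (log2 difference -0.35 ± 0.11, adjusted p = 0.0445) and motor sums were higher than prefrontal sums (0.40 ± 0.11, adjusted p = 0.0227). Between other neighbours in the order of levels no difference passed the test. Within the auditory, motor and prefrontal systems the lowest Grin1 values came from batch 1: the batch 1 motor sums had 266 and 305 CPM, against 356 to 391 CPM in the other 3. The prefrontal call was lost without any 1 of the 3 batches (adjusted p from 0.0843 to 0.218), and also without auditory replicate 1, somatosensory replicate 3 or any of prefrontal replicates 2, 3 and 4 (0.0548 to 0.166). It was also lost with thinned cells (0.0971) and without the filter on low counts (0.0722).

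Grin2a, which encodes the GluN2A subunit known for fast current decay, was low in auditory neurons. The 5 auditory sums had 108, 161, 112, 149 and 111 CPM, and the 5 motor sums 222, 240.3, 257, 239.6 and 252 CPM. Prefrontal sums had 212, 149, 207 and 253 CPM, somatosensory sums 227, 303 and 269 CPM, and visual sums 315, 316, 299.5 and 234 CPM. No auditory sum reached any motor, somatosensory or visual sum, and the ranges of auditory and prefrontal sums overlapped through prefrontal replicate 2. The systems differed (adjusted p = 0.000385, edgeR F test). Auditory sums were below the mean of the other systems by a log2 difference of -0.93 ± 0.13 (adjusted p = 8.48e-05), where 7.97% of all genes passed. Each of the 4 pairs with auditory sums passed: the log2 difference was -0.91 ± 0.15 from motor, -0.68 ± 0.15 from prefrontal, -1.02 ± 0.18 from somatosensory and -1.13 ± 0.19 from visual sums, with adjusted p between 0.000364 and 0.0122 (edgeR). Of all genes, 8.52%, 4.54%, 4.78% and 0.761% passed in these 4 pairs. None of the other 6 pairs passed for Grin2a. The auditory difference had the same sign within each batch alone: -0.59 in batch 1 (adjusted p = 0.355), -0.89 in batch 2 (0.0441) and -1.24 in batch 3 (0.0149).

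Grin2b, which encodes the slowly decaying GluN2B subunit that dominates in the young forebrain, was low in prefrontal neurons, with auditory neurons next. The 4 prefrontal sums had 213, 186, 278 and 252 CPM. The 5 auditory sums had 377, 395, 254, 314 and 303 CPM, and the 5 motor sums 556, 533, 475, 486 and 436 CPM. Somatosensory sums had 501, 438 and 442 CPM, and visual sums 566, 522, 548 and 521 CPM. All motor, somatosensory and visual sums exceeded all auditory and prefrontal sums, while auditory and prefrontal ranges overlapped between 254 and 278 CPM. Grin2b had the smallest adjusted p of the 6 among the systems (1.38e-05, edgeR F test). Prefrontal sums lay below the mean of the others by a log2 difference of -0.97 ± 0.11 (adjusted p = 1.06e-05), a ratio of 0.509. Prefrontal minus somatosensory was -1.03 ± 0.16 and prefrontal minus visual -1.27 ± 0.16, while auditory exceeded prefrontal sums by 0.50 ± 0.13 and motor exceeded them by 1.10 ± 0.13 (adjusted p from 1.19e-05 to 0.027 over the 4 pairs). Of all genes, 10.8%, 4.03% and 3.05% passed in the pairs of prefrontal with motor, somatosensory and visual sums. The prefrontal difference was -1.22 in batch 1 alone, -0.52 in batch 2 alone and -0.75 in batch 3 alone, and batch 2 alone did not pass (adjusted p = 0.433).

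Motor sums exceeded the mean of the others in Grin2b by 0.40 ± 0.10 on the log2 scale (adjusted p = 0.0210), a contrast in which 3.91% of all genes passed; the call was lost without batch 1 (adjusted p = 0.0771) and with sums per sort date (0.165), and without any of motor replicates 1 to 4 (0.0536 to 0.0843). Auditory sums were lower than the mean of the others (log2 difference -0.35 ± 0.10, adjusted p = 0.0374), and lower than motor and visual sums taken singly. This auditory call did not hold: without batch 2 the adjusted p was 0.595, and without batch 3 it was 0.461 (edgeR). The first of these fits also lacks all somatosensory sums and the second all visual sums. In batch 1 alone the difference was 0.24, of the opposite sign, but the others there are motor and prefrontal sums only. Mean Grin2b in batch 1 was 386 CPM in auditory, 544 CPM in motor and 199 CPM in prefrontal sums. Leaving out any 1 of 7 sums, 3 of them auditory, 2 motor, 1 somatosensory and 1 visual, also ended the auditory call (adjusted p from 0.0511 to 0.155, edgeR). Visual sums had the highest mean of Grin2b, 539 ± 21.6 CPM, yet their difference from the other systems (log2 0.61 ± 0.14) missed the threshold at an adjusted p of 0.0967, in a contrast where 0.145% of all genes passed. The visual difference passed with DESeq2 (adjusted p = 0.0035) and without prefrontal replicate 2 (0.0439). Within batch 3, the only batch with visual sums, the visual difference was 0.72 (adjusted p = 0.00208, edgeR on batch 3 alone).

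Grin2c, which encodes the weakly magnesium-blocked GluN2C subunit, was highest in motor and lowest in prefrontal neurons. The 5 motor sums had 132, 123, 101, 103 and 106 CPM. The 4 prefrontal sums had 22.6, 49.9, 47.2 and 49.6 CPM. The 5 auditory sums had 73.6, 108, 41.9, 56.4 and 33.9 CPM, the somatosensory sums 86.4, 93.2 and 68.9 CPM, and the visual sums 70.1, 68.3, 54.4 and 63.3 CPM. Motor sums lay above all prefrontal, somatosensory and visual sums, and 1 auditory sum, of batch 1, fell within the motor range. The systems differed (adjusted p = 0.00387, edgeR F test). Against the mean of the other systems, the log2 difference was 0.82 ± 0.19 in motor (adjusted p = 0.0133) and -0.95 ± 0.22 in prefrontal sums (adjusted p = 0.00784). Motor exceeded prefrontal sums by 1.41 ± 0.25 (adjusted p = 0.000779), a ratio of 2.66, and auditory sums were lower than motor sums (-0.89 ± 0.24, adjusted p = 0.0224). The motor call was lost without batch 3 (adjusted p = 0.143) and with sums per sort date (0.0722), and the prefrontal call without batch 1 (adjusted p = 0.153). The prefrontal log2 difference was -1.58 in batch 1 alone, -0.66 in batch 2 alone and -0.30 in batch 3 alone. Without batch 1 it was -0.53. Astrocytes also express Grin2c; the summed astrocyte markers had a median of 1.55 CPM in motor and 1.53 CPM in visual sums, 3.03 CPM in somatosensory, 8.19 CPM in prefrontal and 11.5 CPM in auditory sums, and their part in the Grin2c differences was not tested.

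Grin2d, which encodes the GluN2D subunit with very slow decay, had 63.3 ± 32.1 CPM in auditory (n = 5), 42.1 ± 18.7 in prefrontal (n = 4), 39.9 ± 19.4 in motor (n = 5), 19.9 ± 2.60 in visual (n = 4) and 19.6 ± 13.5 CPM in somatosensory sums (n = 3). In the auditory, motor and prefrontal systems the levels differed with the batch. The 2 batch 1 sums had 89.2 and 104 CPM in the auditory, 63.5 and 57.8 in the motor and 69.6 and 36.9 CPM in the prefrontal system, and each of these 6 values exceeded every sum of the same system from batches 2 and 3. The 3 somatosensory sums, all of batch 2, ranged from 6.61 to 33.5 CPM. The test among the 5 systems missed the threshold (adjusted p = 0.115, edgeR F test) and passed with DESeq2 (0.03), without the filter, without the batch term, with thinned cells and without somatosensory replicate 1 (0.00109 to 0.0281); auditory sums exceeded the mean of the others (log2 difference 0.84 ± 0.24, adjusted p = 0.0342). That call was lost without any 1 of the 3 batches (adjusted p from 0.101 to 0.253) and in each batch alone, and without any 1 of 11 sums (0.0506 to 0.13). None of the 10 pairs passed for Grin2d.

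Grin3a, which encodes the glycine-binding GluN3A subunit, had its highest levels in prefrontal neurons, at 98.2, 100.4, 106 and 113 CPM. The 3 somatosensory sums had 48.5, 20.4 and 44.97 CPM. Auditory sums ranged from 39.4 to 98.3 CPM, motor sums from 45.7 to 76.6 CPM and visual sums from 17.8 to 80.5 CPM. The lowest prefrontal sum and the highest auditory sum were nearly equal, and no sum of the other 3 systems reached the prefrontal values. Prefrontal sums exceeded the mean of the other systems by a log2 difference of 0.84 ± 0.26 (adjusted p = 0.0413, edgeR). This call rested on every batch: it was lost without any 1 of them (adjusted p from 0.0595 to 0.324), without the 84 cells that held markers of another type (0.0695), with sums per sort date (0.0972), and without any 1 of 10 sums, among them every prefrontal one (0.0512 to 0.307). The test among the 5 systems (adjusted p = 0.149) missed the threshold and passed with DESeq2 (0.0342), without the filter and without visual replicate 1 (0.0463); none of the 10 pairs passed with edgeR.

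Over the systems, then, 9 of 30 tests of a subunit in 1 system against the mean of the others passed. Of these, 4 were in prefrontal, 3 in auditory and 2 in motor sums, where 9.17%, 7.97% and 3.91% of all genes passed. Somatosensory and visual sums had none, in contrasts where 0.232% and 0.145% of all genes passed. Between pairs of systems, where 0% to 10.8% of all genes passed per pair, 14 of 60 tests passed. None of them was between motor, somatosensory and visual sums: of all genes, 0.686% passed between motor and visual, 0.0465% between somatosensory and visual, and 0% between motor and somatosensory sums, where 665 of 17211 genes had an unadjusted p under 0.05 with edgeR and DESeq2 called 29 genes. The median log2 difference of the 6 subunits was -0.21 in prefrontal, -0.28 in auditory, 0.19 in motor, 0.30 in somatosensory and 0.07 in visual sums against the others, beside medians over all genes between -0.00745 and 0.0259.

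The GluN2 subunits can also be given as shares of all Grin2a to Grin2d UMIs of a sum. Grin2b made up 44.4 ± 3.36% in prefrontal sums, against 56.8 ± 4.50% in auditory, 55.6 ± 1.39% in motor, 55.5 ± 3.49% in somatosensory and 59.1 ± 2.30% in visual sums. Grin2a made up 39.1 ± 3.78% in prefrontal and 22.4 ± 3.75% in auditory sums, with 27.4 to 32.2% on average elsewhere. The prefrontal Grin2b shares, 41.2 to 49.1%, lay below every other sum's, and their Grin2a shares, 35.4 to 43.5%, overlapped those of somatosensory sums alone, which reached 36.1%. Grin2d made up 10.5 ± 3.66% in auditory and 8.25 ± 3.84% in prefrontal sums, against 2.19 ± 0.345% in visual and 2.36 ± 1.58% in somatosensory sums. Grin2c made up 12.6 ± 0.726% in motor and 7.01 ± 0.761% in visual sums.

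**Figure D2:**
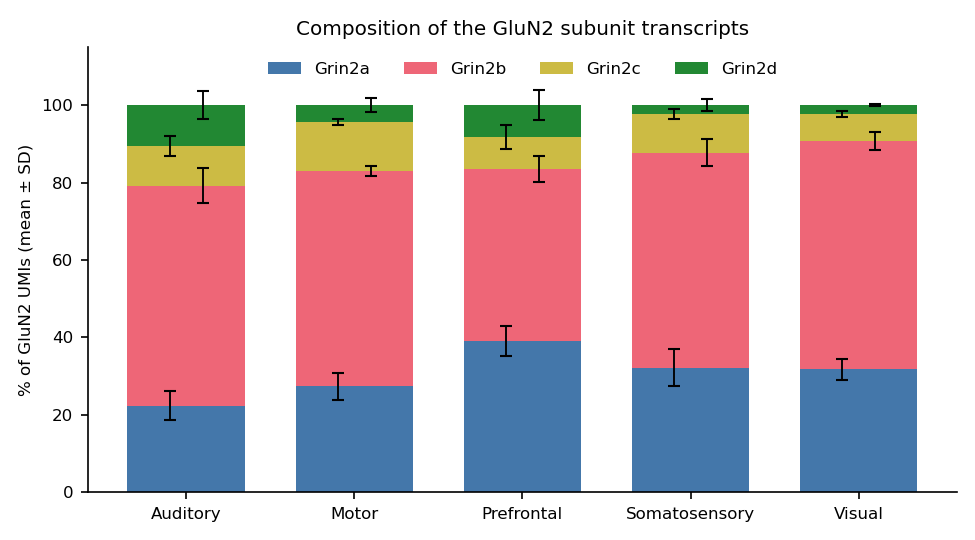
Mean share of each GluN2 gene in the UMIs of the 4 genes (y axis, percent) for each projection system; whiskers give the SD of each share over sums and sit at the top of its segment. Prefrontal sums have the largest Grin2a segment, 39.1%, and auditory sums the smallest, 22.4%.

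The balance of Grin2b to Grin2c was taken as Grin2b UMIs in percent of Grin2b plus Grin2c UMIs. Since the 3' ends of the genes may be captured differently, its level is not a ratio of proteins, and it is used to compare groups. The share was 81.5 ± 0.907% in motor (n = 5), 84.5 ± 4.09% in auditory (n = 5), 84.6 ± 4.78% in prefrontal (n = 4), 84.8 ± 2.09% in somatosensory (n = 3) and 89.4 ± 1.10% in visual sums (n = 4). The 5 motor sums lay between 80.5 and 82.5%, and the 4 visual sums between 88.4 and 91.0%, with no overlap. Prefrontal sums ranged from 78.8 to 90.4%, both ends from batch 1. Their levels of both genes were low, while their mean balance over these widely spread sums lay near that of auditory and somatosensory sums. The variance between systems had a permutation p of 0.0295 (100000 resamples) and of 0.0443 with labels permuted within batch. It passed 0.05 no longer without motor replicate 1, 2 or 5 or visual replicate 1, 3 or 4 (p from 0.0502 to 0.0828), without the 84 marked cells (0.0838), without batch 2 (0.0785) and without batch 3 (0.605). In the exact permutation test of motor against visual sums, the difference of -7.90 percentage points had p = 0.0159, the smallest p that 5 against 4 sums allow, and an adjusted p of 0.159 over the 10 pairs. None of the 10 pairs passed after adjustment.

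**Figure D3:**
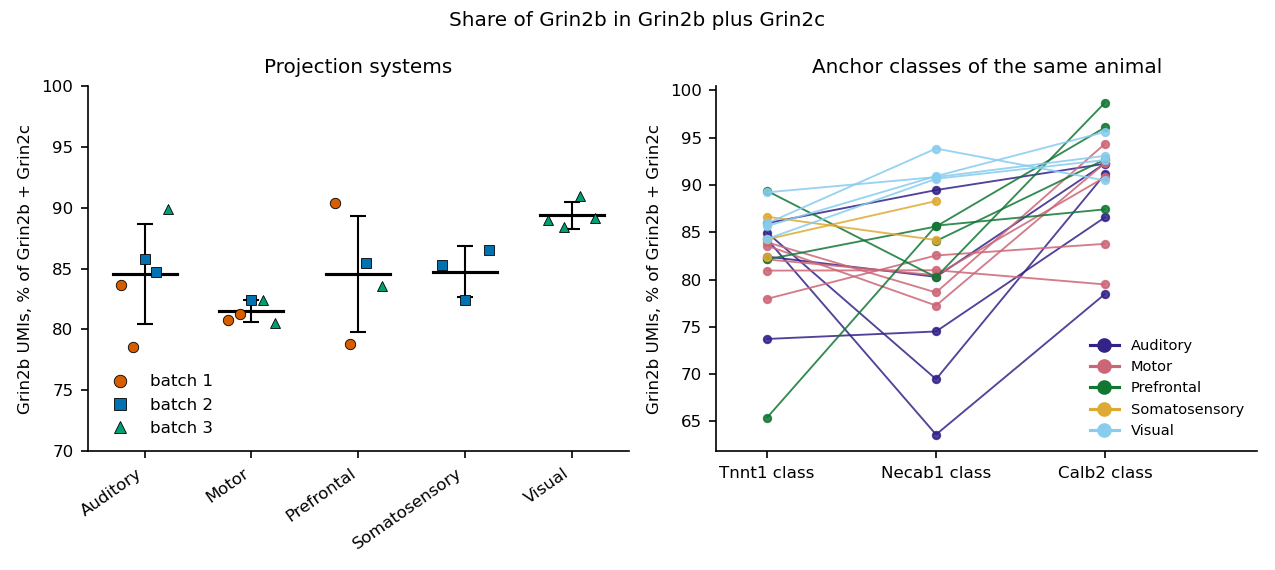
Grin2b UMIs in percent of Grin2b plus Grin2c UMIs (y axis; neither axis starts at 0). Left, every sum by projection system with mean and SD, coloured by batch; right, anchor classes of the same animal and system joined by a line, coloured by system. The motor and visual sums do not overlap, and the share is higher in the Calb2 class than in the Tnnt1 class in 15 of 17 pairs.

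Cells were also put in a class by whichever of the genes Tnnt1, Necab1 and Calb2 reached the highest CPM in that cell; these are known markers of graded profiles that recur across thalamic projection systems. No class was given to 73 cells in which no single one of these anchor genes was highest, and class sums of under 5 cells were left out. No subunit gene enters the class, and classes of the same animal and system were compared as a block over 58 sums (18 Calb2, 20 Necab1 and 20 Tnnt1). Of 18 tests of a subunit between classes, 10 passed. Between the Calb2 and the Tnnt1 class 5 of the 6 genes passed, 4 of them lower in the Calb2 class and Grin3a higher, where 8.07% of all genes passed. Between the Calb2 and the Necab1 class 4 of 6 passed, all of them lower in the Calb2 class, where 7.22% of all genes passed. Only Grin3a passed between the Necab1 and the Tnnt1 class, where 3.23% did. The median log2 difference of the 6 genes was -0.62 for Calb2 minus Tnnt1 and -0.45 for Calb2 minus Necab1, beside medians over all genes of 0.06 and 0.09.

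Grin2c had the largest difference. It ranged from 2.03 to 128 CPM with a median of 34.4 CPM over the 18 Calb2 sums, from 57.6 to 272 CPM with a median of 97.3 CPM over the 20 Tnnt1 sums, and from 38.2 to 332 CPM with a median of 64.4 CPM over the 20 Necab1 sums. The log2 difference was -1.72 ± 0.25 for Calb2 minus Tnnt1 (adjusted p = 1.31e-06, edgeR) and -1.43 ± 0.24 for Calb2 minus Necab1 (adjusted p = 5.27e-05), although the ranges of the classes overlapped. The order of the systems changed with the class. In the Tnnt1 class mean Grin2c was 142 ± 114 CPM in prefrontal (n = 3, 46 cells) and 126 ± 27.8 CPM in motor sums (n = 5, 209 cells). In the Calb2 class these means were 9.77 ± 7.63 (n = 4) and 66.2 ± 43.8 CPM (n = 5). In the Necab1 class they were 54.2 ± 8.61 (n = 4) and 120 ± 9.35 CPM (n = 5), beside 146 ± 110 CPM in auditory sums (n = 5). No test compared systems within a class. Grin2b had medians of 362, 424 and 519 CPM in the Calb2, Necab1 and Tnnt1 classes, and log2 differences of -0.67 ± 0.11 for Calb2 minus Tnnt1 (adjusted p = 1.75e-05) and -0.405 ± 0.107 for Calb2 minus Necab1 (adjusted p = 0.0106). In the Tnnt1 class mean Grin2b was 480 ± 35.9 CPM in prefrontal sums (n = 3). Auditory sums had 437 ± 112 CPM there (n = 5), and the other systems had 499 to 570 CPM. Prefrontal means were 143 ± 25.8 CPM in the Calb2 and 284 ± 43.1 CPM in the Necab1 class (n = 4 each), lowest of the systems with such sums. For Calb2 minus Tnnt1 and Calb2 minus Necab1, Grin1 differed by -0.59 ± 0.10 and -0.34 ± 0.10, and Grin2a by -0.65 ± 0.15 and -0.52 ± 0.15. Grin3a went the other way. Its median was 95.3 CPM in the Calb2 class, 92.1 CPM in the Necab1 class and 32.6 CPM in the Tnnt1 class, with log2 differences from Tnnt1 of 1.45 ± 0.26 (adjusted p = 7.31e-05) and 1.22 ± 0.25 (adjusted p = 0.00143). Grin2d passed in none of the 3 contrasts, its log2 difference being 0.02 ± 0.22 for Calb2 minus Tnnt1. In the Calb2 minus Necab1 contrast the Grin2a call was lost without the prefrontal (adjusted p = 0.278) or auditory sums (0.0864) and, narrowly, with a 2-fold lead of the first anchor over the second, that of Grin2b without the auditory (0.105) or prefrontal sums (0.0556), and that of Grin1 without the motor (0.183), prefrontal (0.229) or visual sums (0.0548) or without motor replicate 3 or 4 or prefrontal replicate 3 or 4 (0.0523 to 0.0563).

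**Figure D4:**
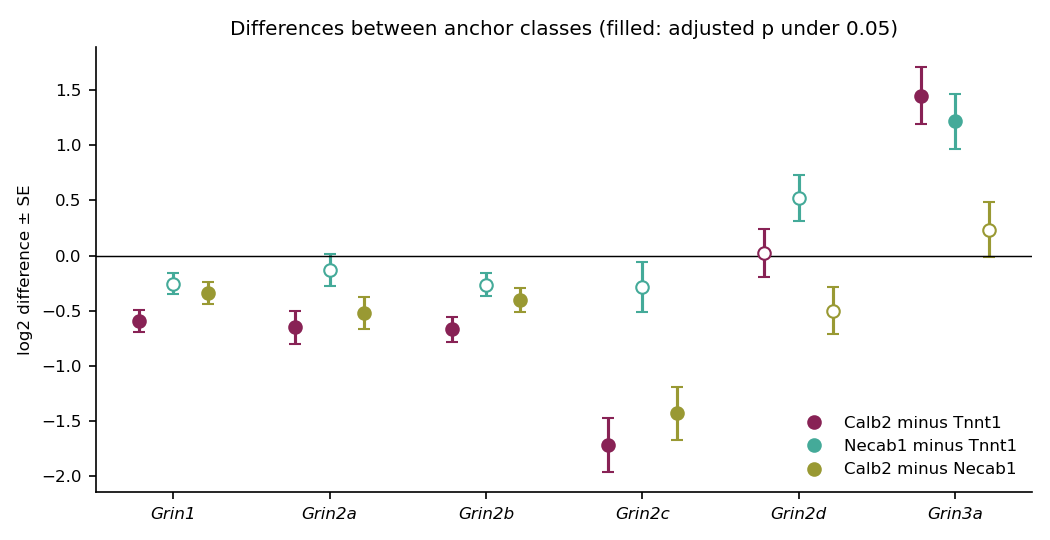
Log2 differences (y axis, with SE) of the 6 subunit genes (x axis) between anchor classes of the same animals and systems, from 58 sums; filled points passed an adjusted p under 0.05. Grin2c lies lowest, at -1.72 for Calb2 minus Tnnt1, and Grin3a highest, at 1.45.

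The balance set the Calb2 class apart from the Necab1 and Tnnt1 classes in pairs pooled over the systems. The Grin2b share was 90.3 ± 5.57% in the Calb2 class and 82.5 ± 5.77% in the Tnnt1 class of the same 17 animals and systems, a mean difference of 7.85 percentage points, with the Calb2 class higher in 15 of 17 (exact paired permutation test, two-sided, p adjusted over 3 pairs of classes = 0.000309). Against the Necab1 class the Calb2 class was 8.27 points higher, in 16 of 18 pairs (exact paired permutation test, adjusted p = 0.000309). This difference averaged 12.7 points in auditory, 8.17 in motor and 9.81 in prefrontal sums. In visual sums it was small, at 1.38 points (-3.39 to 4.66, higher in 3 of 4 animals). Necab1 and Tnnt1 classes had shares of 82.5 ± 7.78% and 82.8 ± 5.54% in 19 pairs, a difference of -0.276 points with an SD of 8.93 (exact paired permutation test, p = 0.897). Calb2 minus Tnnt1 was 5.88 points in auditory (higher in 4 of 5 animals), 6.44 in motor (4 of 5), 15.1 in prefrontal (3 of 3) and 6.66 in visual sums (4 of 4); somatosensory sums had too few Calb2 cells for a pair. The order of the other classes was not shared by the systems: Necab1 minus Tnnt1 averaged -6.79 points in auditory and 5.29 points in visual sums.

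The authors' clusters were made from the same counts, so subunit levels in them are a description with no test, over sums of animals with 5 or more cells. Grin2c differed widely between them. In Aud_3, a cluster of 63 auditory neurons of which 96.8% were of the Calb2 class, all cells together held 10 Grin2c UMIs, which is 1.81 CPM (exact Poisson 95% interval 0.869 to 3.33, counting error only), against 785 Grin2b UMIs. Only 2 of the 63 cells held a Grin2c UMI. Auditory replicate 1 gave 9 of the 10 UMIs, and replicates 2, 3 and 4 had 0. The interval takes the UMIs as independent and does not cover this spread between cells. A pair of clusters of prefrontal neurons had low levels as well: Pfr_3 had 12.7 ± 3.37 CPM (n = 2) and Pfr_4 14.5 ± 20.0 CPM (n = 2). Both Pfr_3 sums were of batch 1 (prefrontal replicates 1 and 2). Those of Pfr_4 were of batches 2 and 3 (replicates 3 and 4), so differences between these clusters cannot be told apart from batch and age. The highest levels of Grin2c were 164 ± 70.04 CPM in Mot_2 (n = 4) and 126 ± 9.27 CPM in Som_2 (n = 3), clusters of which 78.9% and 93.9% of cells were of the Tnnt1 class. Grin2b was also low at 140 ± 42.1 CPM in Aud_3 (n = 5), 147 ± 29.6 in Pfr_3 and 125 ± 71.5 CPM in Pfr_4, while the other 14 clusters had means from 325 CPM in Mot_1 to 658 CPM in Mot_2. Low Grin2c did not always go with low Grin2b. Mot_4 had 44.6 ± 40.8 CPM of Grin2c, with 1.46 and 6.44 CPM in its batch 1 sums, beside 455 ± 97.4 CPM of Grin2b (n = 5). Som_3 had 40.0 ± 9.81 CPM of Grin2c and 399 ± 9.70 CPM of Grin2b (n = 2). Pfr_1, a cluster of 44 prefrontal neurons of which 86.4% were of the Tnnt1 class, had 469 ± 36.6 CPM of Grin2b (n = 2), within the range of motor and somatosensory clusters.

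Grin2a and Grin3a divided the clusters along other lines. Grin2a reached 485 ± 223 CPM in Pfr_2 (n = 4), whose sums lay between 291 and 802 CPM, and was lowest in Aud_3 at 71.5 ± 74.3 CPM (n = 5). In Pfr_3 and Pfr_4 it was 143 ± 13.9 and 141 ± 62.8 CPM, close to the level of Grin2b there. Grin3a was low in Vis_1 at 6.42 ± 5.12 CPM (n = 4) and Som_1 at 6.92 ± 10.5 CPM (n = 3), and in Aud_1 at 21.5 ± 20.3 CPM (n = 5). It had 160 ± 57.9 CPM in Pfr_4 (n = 2), 141 ± 27.7 in Vis_3 (n = 4), 116 ± 44.3 in Aud_3 (n = 5) and 102 ± 26.9 CPM in Som_3 (n = 2). Within the auditory, somatosensory and visual systems the cluster numbered 1 had the lowest mean of Grin3a and the cluster numbered 3 the highest. Of the cells in Som_1, Vis_1 and Aud_1, 94.4%, 92.1% and 74.3% were of the Tnnt1 class.

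**Figure D5:**
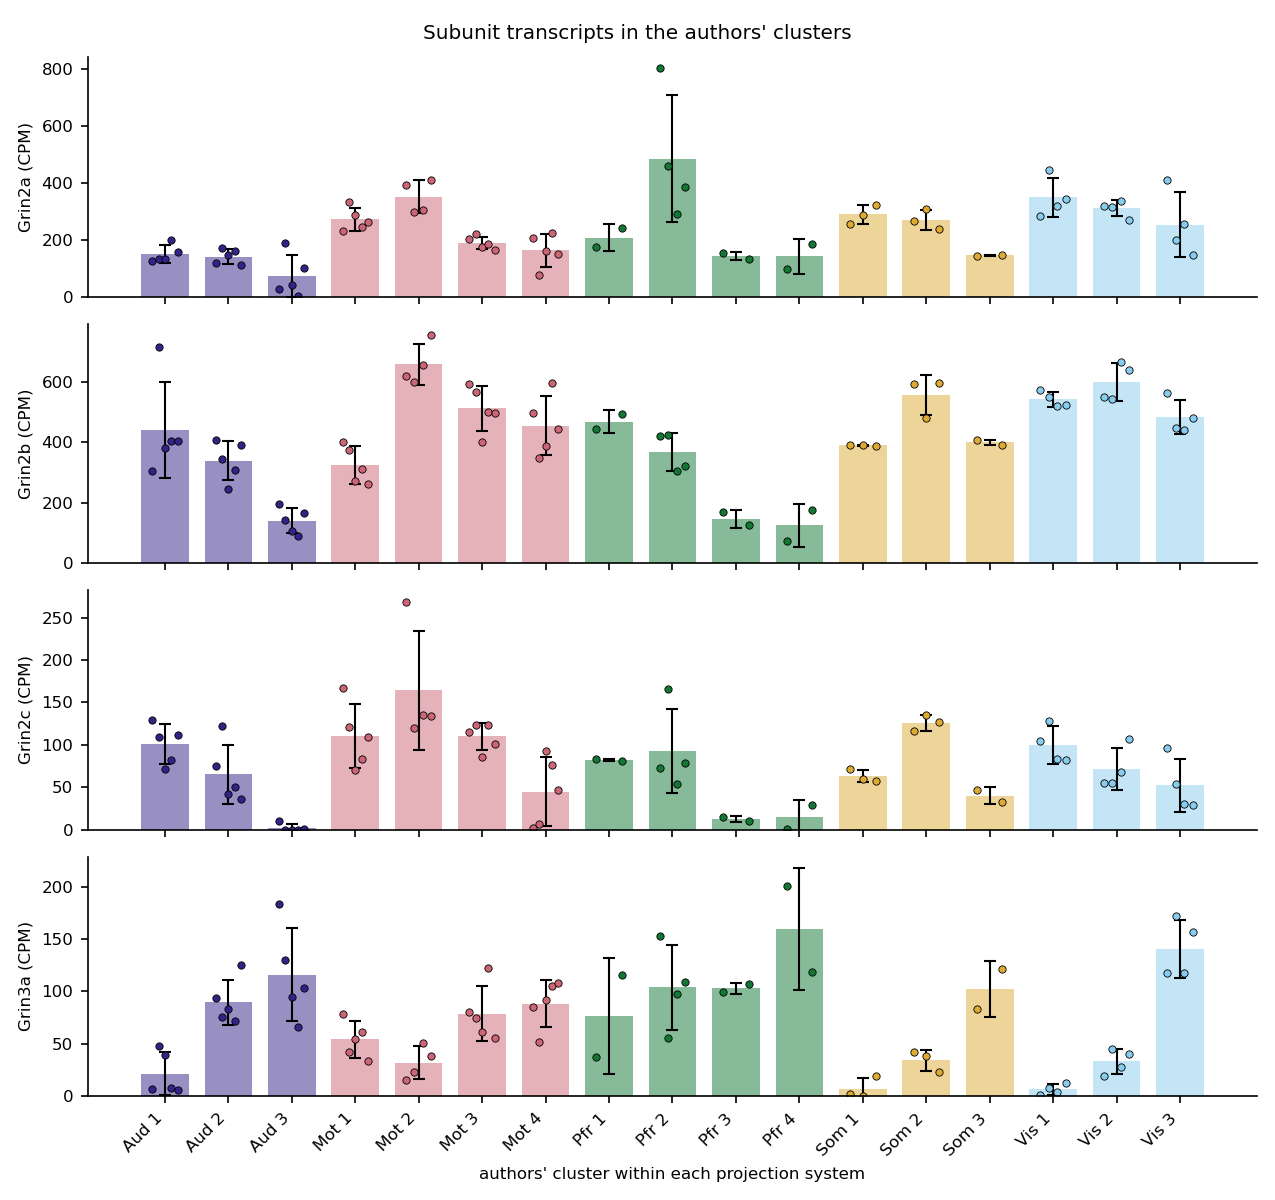
CPM of Grin2a, Grin2b, Grin2c and Grin3a (y axes) in the 17 clusters that the authors gave within systems (x axis); bars are means over animals with 5 or more cells, whiskers SD, points the single sums. Grin2c is close to 0 in Aud_3 and low in Pfr_3 and Pfr_4, where Grin3a is above 100 CPM.

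The authors also drew 9 joint clusters over all systems. Joint cluster 8 (65 cells, 62 of them auditory and 3 visual) held 1 Grin2c UMI among 5690272, or 0.176 CPM (exact Poisson 95% interval 0.00445 to 0.979). Joint cluster 9, of 99 prefrontal cells that all came from batch 1, had 11.1 CPM over all its cells. Joint cluster 6 (111 cells, 74.8% of them visual) had 12.9 CPM. Grin2b was 140 ± 38.6 CPM in joint cluster 8 (n = 5), 137 ± 31.5 in joint cluster 9 (n = 2) and 420.1 ± 69.0 CPM in joint cluster 6 (n = 6). Low Grin2c thus stood beside low Grin2b in joint clusters 8 and 9, but not in the mostly visual joint cluster 6. At the other end, joint cluster 2 (312 cells, 50.3% motor and 42.6% somatosensory) had 136 CPM of Grin2c over all its cells and 599 ± 81.0 CPM of Grin2b (n = 8). The mean balance over sums ranged from 75.4 ± 15.2% in joint cluster 7 (n = 8) to 99.9 ± 0.187% in joint cluster 8 (n = 5), and joint clusters 1 to 5 had means between 80.8 and 83.7%. The 8 sums of joint cluster 7 lay between 50.9 and 98.3%. Over the UMIs of all its cells its share was 82.9%, above the pooled 81.0% of joint cluster 2. Grin2d had its highest mean in joint cluster 5, of which 87.3% were auditory cells, at 74.5 ± 32.1 CPM (n = 7).

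To see whether Grin2b and Grin2c were found in the same cells, each cell was thinned to 20000 UMIs, and no cell was shallower. Both genes had a UMI in 63.4% of motor, 58.2% of somatosensory, 44.1% of visual, 33.7% of auditory and 27.1% of prefrontal cells. Grin2c without Grin2b was found in at most 1.84% of the cells of a system. The 1.47% of cells with a Gad2 UMI is a share at full depth, and no background is given for thinned cells. Grin2b without Grin2c was found in 35.1% of motor to 56.6% of auditory cells. Neither was found in 16.0% of prefrontal and 7.89% of auditory cells, against 0.690% of visual and 0.413% of motor cells and 0 of 285 somatosensory cells. The cells with neither were spread over clusters as the levels were: 28.6% of Aud_3, 30.9% of Pfr_4 and 23.0% of Pfr_3 cells, and 0% to 4.72% of the cells of the other clusters. Thinning does not remove the chance of missing a transcript, so a cell without a UMI of either gene may still express it.

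Genes that carry, modify or answer to NMDA receptors were counted in lists from textbook knowledge, with values for the 2 genes of each list with the smallest p among systems. Of 14 scaffold genes, 6 differed among the systems (edgeR F test), where 12.6% of all genes passed. In prefrontal sums 7 of them passed against the others, 5 lower and 2 higher, where 9.17% of all genes passed, and their median log2 difference was -0.58, beside 0.02 over all genes. Homer2, which links receptors to internal calcium stores, had 135.9 ± 34.5 CPM in motor sums against 42.5 ± 13.8 in auditory and 47.1 ± 17.3 CPM in prefrontal sums, and its log2 difference from the mean of the others was -1.34 ± 0.21 in auditory (adjusted p = 0.000294, edgeR), -1.14 ± 0.23 in prefrontal (0.00207) and 1.00 ± 0.19 in motor sums (adjusted p = 0.00323). Shank2, a scaffold of the postsynaptic density, was higher in motor (0.65 ± 0.13) and lower in prefrontal sums (-0.64 ± 0.16). Between classes 5 of the 14 passed for Calb2 minus Tnnt1, all lower, where 8.07% of all genes passed, and the median was -0.40, beside 0.06 over all genes.

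Of 14 kinases and phosphatases, 5 differed among the systems and 5 were lower in prefrontal sums, none higher; 6 were lower in the Calb2 than in the Tnnt1 class and none higher. Of all genes, 12.6%, 9.17% and 8.07% passed in these tests, in either direction. Ptpn5 encodes STEP, the phosphatase that acts on GluN2B; it had 179 ± 33.3 CPM in auditory, 216 ± 28.0 in prefrontal, 314 ± 35.1 in motor, 336 ± 11.5 in visual and 391 ± 24.1 CPM in somatosensory sums (F test adjusted p = 4.58e-06, edgeR). Ppp3ca, the catalytic subunit of calcineurin, was lower in prefrontal sums (log2 difference -0.60 ± 0.08, adjusted p = 6.4e-05). Of 5 genes of signalling to Ras, Rac and nitric oxide, 3 differed among the systems, beside 12.6% of all genes. Tiam1, a Rac activator that binds the receptor, was lower in prefrontal sums (-1.15 ± 0.20, adjusted p = 0.000616), while Rasgrf2, a Ras activator, was higher there (2.20 ± 0.50, adjusted p = 0.00613). Of 9 transport and surface partners 1 differed among the systems, a share near the 12.6% of all genes. It was Lin7c (adjusted p = 0.0461), which was higher in auditory sums (0.68 ± 0.16, adjusted p = 0.0122), as was its relative Lin7a (0.63 ± 0.19, adjusted p = 0.0450). Of 7 genes of co-agonist supply and uptake, 5 passed the filter on low counts, and the smallest adjusted p among the systems was that of Slc6a9 (0.0575, edgeR F test). Slc6a9, the glycine transporter GlyT1, was higher in auditory sums than in the others (0.89 ± 0.23, adjusted p = 0.0188). Astrocytes also express Slc6a9, and the summed astrocyte markers had their highest median, 11.5 CPM, in auditory sums; their part in this difference was not tested. Slc1a4, a carrier of serine and alanine, had the next smallest p of that list (F test adjusted p = 0.541).

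For each subunit the 3 genes with the most similar profile over the 21 sums were taken from 8850 genes with a mean of at least 10 CPM. They were Pcp4 (Pearson r = 0.916), Chchd10 and Atp5g1 for Grin1, and Psmb5 (0.874), Cdh8 and Ptpn5 for Grin2a. For Grin2b they were Hlf (0.913), Ier3 and Wipf3, for Grin2c Tsc22d3 (0.904), Plpp6 and Ppp2r5d, for Grin2d Rph3a (0.888), Ncor1 and Ncdn, and for Grin3a Mcub (0.895), Plcb1 and Fam81a. No gene was among the 3 of more than 1 subunit. The sums share systems, batches and depths, and with so many genes compared the highest r is high by choice, so these values are a description.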

How the data were processed

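The deposited table holds whole UMI counts per cell and gene, made by the authors with cutadapt 1.16, Picard 1.12 and STAR 2.5.3 on mm10, per the submitters' processing notes; of the annotation and counting rule, the sources say nothing (not given in the sources used here). A cell's system, animal, sort date, batch, cluster and joint cluster came from the authors' cell table, and no per-sample value column was left unmatched (0). Counts were summed per animal and system (10 or more cells) and tested in R 4.3.3 with edgeR 4.0.16 (TMM, filterByExpr, trended dispersion, quasi-likelihood, batch as covariate, Benjamini-Hochberg over all genes, threshold 0.05); residual degrees of freedom were 14. Class sums needed 5 cells and had animal and system as a block, and cluster levels are CPM without TMM scaling. Class percentages of all genes exclude the 3 anchor genes. P-values measure the spread between sums, and intervals and floors cover counting error only. All 90 spike-in columns were left out. No doublet caller was run, since neurons were picked by hand. For shares of cells, each cell was thinned to 20000 UMIs. DESeq2 1.42.0, no filter, another dispersion, no batch term, sums per date, cell filters, batches and left-out sums were alternatives. The code was tested on simulated counts. All 6 subunits are named, the 2 genes per list with the smallest p among systems, and the 3 genes most like each subunit. The members and lists were chosen with earlier results of these data known.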

Additional observations from a re-analysis of the deposited data

Results flagged for a closer look

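In prefrontal replicate 1, a sum of 64 cells from batch 1, Grin2c was at 22.65 CPM, while the nearest of the other 3 prefrontal sums was at 47.25 CPM; the gap is 0.9032 of the range of the 4 sums. It was the 1 case among 28 groups of sums examined in this way, and chance marks about 1 in 20 such groups. The same sum had the highest prefrontal Grin2b share, 90.4%.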

How the results depend on the processing

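Against 9 subunit calls of 1 system against the others in 30 tests, there were 4 of 24 without batch 3, 3 of 18 in batch 1 alone and 1 of 24 in batch 2 alone, and leaving out single sums gave 5 to 9, the fewest without motor replicate 2. Against 14 calls in 60 tests between pairs of systems, there were 7 of 36 without batch 2, 5 of 36 without batch 3, 3 of 18 in batch 1 alone, and 2 and 7 of 36 in batches 2 and 3 alone; single sums left out gave 10 to 16. Which calls these shared was not counted, and the shares of all genes that passed in these fits are not given here. Against 4 subunits that differed among systems, 1 did in batch 1 alone and 0 in batch 2 alone; these fits hold fewer sums and systems. Counts between classes stayed at 7 to 12 against 10. For Grin2b in auditory sums the difference was 0.237 in batch 1 alone, the opposite sign, where the others were motor and prefrontal sums only. The p of the Grin2b share among systems was 0.0838 without marked cells, 0.0785 without batch 2 and 0.605 without batch 3, and ranged from 0.00753 to 0.0828 with single sums left out. The share difference of Necab1 minus Tnnt1, not past the threshold in any setting, changed sign with the log2 ratio (0.0484), without marked cells (0.381) and with a 2-fold lead of the first anchor (1.97), and ranged from -1.42 to 0.854 with single animals left out; the cause was not tested. The Calb2 minus Tnnt1 calls of 5 subunits and of the share kept sign and side of the threshold in all settings run. Over 26 single-subunit results, 762 of 877 values kept both, 99 lost the threshold, 15 gained it and 1 changed sign. No paired analysis between systems was possible. Of 20 animal identifiers, 1 had cells of 2 systems, and its sums differ in sort date and listed age. Plate numbers follow accession order and tie no samples together. Classes were compared within animals. Depth limits Grin2c most in clusters with few UMIs.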

Other observations

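Grin3b, which encodes the remaining NMDA receptor subunit GluN3B, was nearly undetected: 13 UMIs in 6 of 1972 cells, fewer cells than the 29 with a Gad2 UMI.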
